A study of Mus musculus with 59 samples.

Results

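The postsynaptic scaffold genes Dlg4, Dlg2, Shank1, Shank2, Shank3, Homer1 and Gphn were described in 59 single mouse cells. These 7 genes were taken by symbol from the 20689 genes of the deposited table, and all 7 symbols were present in it. By their labels the cells are chemical-induced neurons, aged 12 weeks, from a study of chemical reprogramming of astrocytes to neurons in the living brain. Their contents were drawn into a patch pipette and sequenced on an Illumina HiSeq4000. No strain, animal, chemical or dose is given in the labels, and no control cells were analysed here. The cells therefore form 1 group and count as 1 sample, so no test was run and every interval covers counting error over cells only.

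A scaffold protein lies beneath the postsynaptic membrane and ties receptors to each other and to the actin cytoskeleton. At excitatory synapses the membrane-associated guanylate kinases PSD-95 (Dlg4) and PSD-93 (Dlg2) bind NMDA receptor tails and, through stargazin-type subunits, AMPA receptors. SHANK proteins sit deeper in the density and bind the Dlg partners through SAPAP proteins (Dlgap genes). Homer proteins link SHANK to group I metabotropic glutamate receptors. At inhibitory synapses gephyrin (Gphn) forms a lattice that holds glycine receptors and GABA-A receptors. Gephyrin also completes the synthesis of the molybdenum cofactor in many tissues, so Gphn transcripts alone do not mark a synapse.

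Homer1 had the highest median level of the excitatory genes and Gphn is the inhibitory one, so the promoters of these 2 are shown. Homer1 also gives rise to an activity-induced short isoform. RefSeq gives 2 starts for Homer1, of which the more upstream is printed, and 1 for Gphn. The sequences are the 250 bases before these starts on GRCm38.p6, plus strand, at chr13:93303507-93303756 for Homer1 and chr12:78226405-78226654 for Gphn. The GENCODE M21 annotation used below starts both genes further upstream, at 93299635 for Homer1 and 78226379 for Gphn. Both windows therefore lie inside the genes as GENCODE M21 annotates them. Capitals mark TGACG, the core of the cyclic AMP response element, in Homer1, and the GC box GGGCGG in Gphn, and each was searched on both strands.
Homer1: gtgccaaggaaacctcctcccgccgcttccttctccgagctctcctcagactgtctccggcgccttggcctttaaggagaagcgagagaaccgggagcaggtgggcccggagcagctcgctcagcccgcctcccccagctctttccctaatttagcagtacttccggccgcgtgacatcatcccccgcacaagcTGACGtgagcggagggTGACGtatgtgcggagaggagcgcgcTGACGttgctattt
Gphn: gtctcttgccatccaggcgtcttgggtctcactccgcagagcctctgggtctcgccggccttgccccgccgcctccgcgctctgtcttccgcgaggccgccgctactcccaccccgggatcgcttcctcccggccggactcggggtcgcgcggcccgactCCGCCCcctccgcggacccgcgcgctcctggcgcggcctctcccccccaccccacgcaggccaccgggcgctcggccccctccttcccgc
The printed Homer1 window held TGACG 3 times, and 0.688% of 32851 mouse promoter windows of this length held it 3 times or more, while 17.8% held it at least once. The window of the other Homer1 start, at chr13:93307784-93308033, held TGACG 0 times and had 46.8% G and C. None of these windows held the full element TGACGTCA, which 1.55% of the windows held. The Gphn window held 1 GC box, a motif present in 32.7% of the windows, and no TGACG. The share of G and C was 62.4% in the printed Homer1 window and 77.2% in the Gphn window, against a median of 52.4% over all windows. A match of letters describes the window and says nothing of binding. Of the 7 genes, 5 matched the promoter table.

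The values are FPKM as the authors deposited them, that is, fragment numbers divided by exon length and by library depth. Detection means an FPKM of at least 1. Depth was estimated from the spacing of the FPKM values and lay between 29043 and 2950402 fragments (median 912996), and 475 to 10310 genes were detected per cell. Each of the 12 neuronal markers chosen reached 50% of the cells, with a list median of 75.4%. Markers of other cell types were present in the same cells, since oligodendrocyte genes had a list median of 74.6% over 10 genes, microglia genes 57.6% over 12 and astrocyte genes 48.3% over 12. The label of neurons was not met alike in every cell. At least 6 of the 12 neuronal markers were detected in 51 of 59 cells, while cells 41 and 53 had 0, cell 27 had 1 and cell 40 had 3.

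Homer1 was the most widely detected scaffold gene and Shank3 the least. Of the 7 genes, 1 (Homer1) was detected in at least 50% of the cells, a share close to that of all genes, 11.7% of which reached this level. Homer1 was found in 39 of 59 cells (66.1%, exact Clopper-Pearson 95% interval 52.6 to 77.9%), Gphn in 25 (42.4%, 29.6 to 55.9%), Dlg2 in 23 (39.0%, 26.5 to 52.6%) and Dlg4 in 21 (35.6%, 23.6 to 49.1%). Shank1 and Shank2 were found in 17 cells each (28.8%, 17.8 to 42.1%), and Shank3 in 5 (8.47%, 2.81 to 18.7%). In this order the intervals of neighbours overlap, from Homer1 and Gphn down to Shank2 and Shank3. The median gene of the whole table was detected in 7 cells. Homer1 lay above 94.5% of all genes in the number of cells, Gphn above 83.2% and Shank3 above 42.3%.

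**Figure D1:**
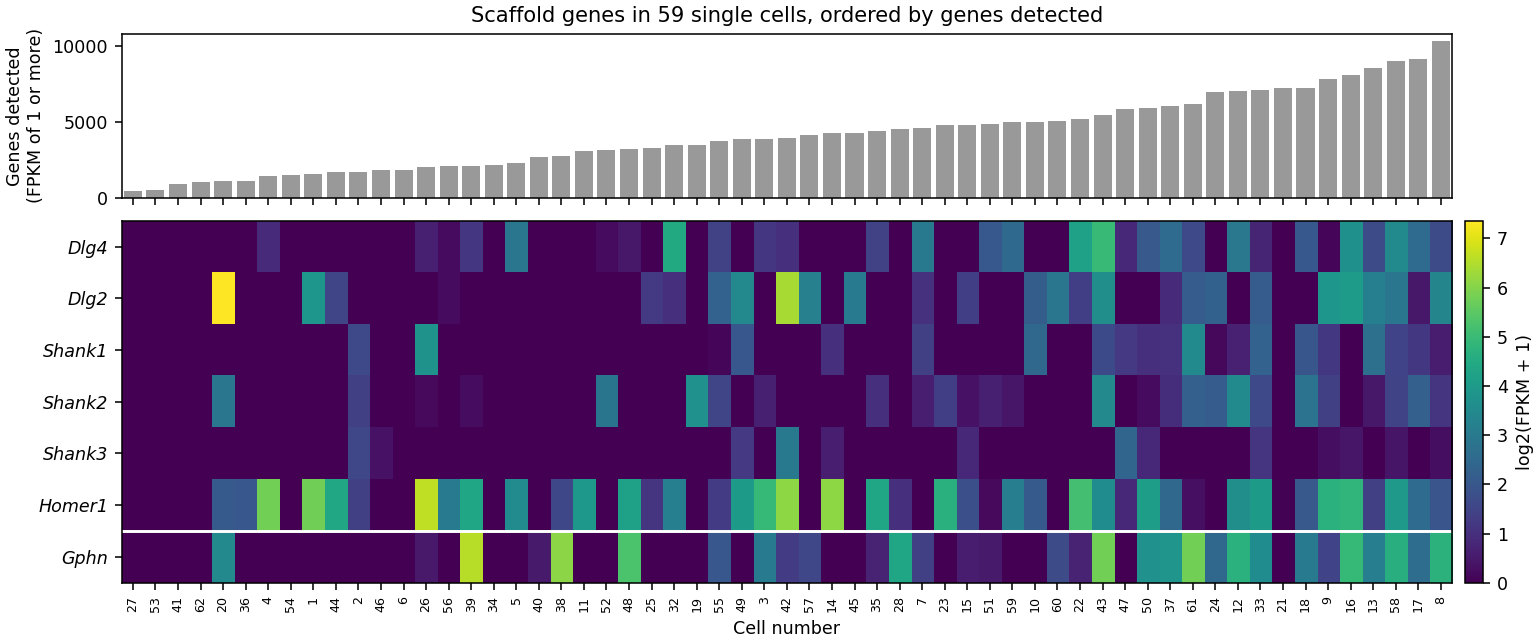
Levels of the 7 scaffold genes as log2(FPKM + 1) in each of 59 cells (columns, by cell number), ordered from left to right by the number of genes detected, which the bars above show. The 6 upper rows are excitatory scaffolds and the row under the white line is Gphn; Homer1 has the most coloured columns, Shank3 the fewest, and 7 cells are at 0 in every row.

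The number of fragments behind a call differed between the genes. The steps between the FPKM values gave the exon length used for each member, from 3397 bases for Gphn and 4982 bases for Dlg4 to 10502 bases for Homer1 and 10660 bases for Shank2. With these lengths, every value above 0 of 6 members was a whole number of fragments within 0.02, and 42 of 43 for Homer1. The lengths were themselves chosen to make the values of each gene whole, so this is no independent check of them. At the median depth an FPKM of 1 stands for 3.10 fragments in Gphn, 4.55 in Dlg4 and 9.59 in Homer1. Detection rested on 1 or 2 fragments in 3 cells for Homer1, 2 each for Gphn and Shank2, 1 each for Dlg4, Shank1 and Shank3, and 0 for Dlg2. Counted by at least 10 fragments, Homer1 was found in 36 cells, Dlg2 in 23, Gphn in 18, Dlg4 and Shank2 in 16 each, Shank1 in 13 and Shank3 in 5. Gphn was thus ahead of Dlg2 by FPKM and behind it by fragments. The exon length of Dlg2 was 10345 bases, and an FPKM of 1 stands for 9.44 fragments in it at the median depth. A cut at 10 fragments therefore asks for a higher FPKM in Gphn than in Dlg2. A further 10 cells held Shank2, 9 Dlg4 and 8 Shank3 at an FPKM above 0 and below 1.

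Dlg4, on chromosome 11 (70016942 to 70047522, GRCm38, GENCODE M21), encodes PSD-95, the most abundant scaffold of mature excitatory synapses. Over the 59 cells it ran from 0 to 31.0 FPKM with a median of 0.094. The highest cells were cell 43 with 31.0 FPKM from 35 fragments, cell 32 with 21.2 and cell 22 with 17.6. In the cells where it was detected the median was 4.71 FPKM from 24 fragments. A few cells thus stood above a broad low range, and 29 cells were at 0.

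Dlg2, on chromosome 7 (90476672 to 92449247), encodes PSD-93 and spans 1973 kb. It ran from 0 to 163 FPKM with a median of 0 and a median of 6.44 FPKM where detected. The maximum, in cell 20, rested on 49 fragments, because that cell had the lowest depth of all, 29043 fragments. The next cells were cell 42 with 83.3 FPKM and cell 16 with 15.4. The first 3 cells held 68.2% of the summed FPKM of Dlg2, so its mean of 6.51 ± 23.6 FPKM (SD over 59 cells) describes few cells. The related Dlg1 (SAP97) was detected in 29 cells and Dlg3 (SAP102) in 22, and Dlg5 in 5.

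Dlg4 and Dlg2 were found both together and apart. Dlg4 without Dlg2 was detected in 12 cells, Dlg2 without Dlg4 in 14 and both in 9. At least 1 of them was present in 35 cells (59.3%, 45.7 to 71.9%). With Dlg1 and Dlg3 added, 45 cells (76.3%, 63.4 to 86.4%) had a gene of this family, and 10 of these had Dlg1 or Dlg3 alone.

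The SHANK genes were low. Shank1, on chromosome 7 (44310253 to 44360572), ran from 0 to 12.4 FPKM, with its highest values in cell 26 (12.4 FPKM), cell 61 (10.3) and cell 13 (5.56). Shank2, on the same chromosome (144001928 to 144424494), ran from 0 to 12.3 FPKM. Its maximum, in cell 19, came from 8 fragments, and cell 12 (10.5 FPKM) and cell 43 (9.93) followed. Both genes had a median of 0 over all cells. Where detected, the median was 2.08 FPKM for Shank1 and 3.37 for Shank2.

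Shank3, on chromosome 15 (89499623 to 89560261), was detected at 6.80 FPKM in cell 42, 4.33 in cell 47, 1.94 in cell 2, 1.34 in cell 49 and 1.15 in cell 33. These values came from 25, 38, 1, 17 and 21 fragments, so the call in cell 2 rests on a single fragment. The gene was at 0 in 46 cells. In mouse striatum Shank3 is the SHANK gene best known for its role at corticostriatal synapses. At least 1 SHANK gene was detected in 27 cells (45.8%, 32.7 to 59.2%), Shank1 with Shank2 in 8 cells and all 3 in 2. Part of the Shank1 exons (339 bases) is shared with the opposite-strand gene 1700008O03Rik, detected in 13 cells, and the strand setting of the counting is not given in the sources used here.

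Homer1, on chromosome 13 (93299635 to 93405129), had the highest median of the 7 genes, 3.17 FPKM, in a range from 0 to 99.5. The highest cells were cell 26 with 99.5 FPKM from 734 fragments, cell 14 with 68.0 and cell 42 with 67.5. Where detected, its median was 11.5 FPKM from 64 fragments, and it was the highest of the 7 genes in 19 of the 49 cells with any member detected. The paralogs Homer2 and Homer3 were detected in 6 and 4 cells, and only 1 cell had either of them without Homer1.

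The table gives 1 value per gene, so the long Homer1 isoforms and the activity-induced short isoform Homer1a cannot be told apart. Immediate early genes were high in the cells, with Fos detected in 57 cells at a median of 1160 FPKM and Arc in 22. The Spearman rho of Homer1 over the 59 cells was -0.16 with Fos, 0.16 with Egr1, 0.04 with Arc and 0.23 with Npas4. Homer1 and Npas4, a neuronal activity gene detected in 18 cells, were found together in 16. These correlations are weak and describe cells that differ in depth.

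Gphn, on chromosome 12 (78226379 to 78684772), ran from 0 to 94.1 FPKM with a median of 0.43. The highest cells were cell 39 with 94.1 FPKM from 153 fragments, cell 38 with 66.8 and cell 61 with 54.5. Where detected, its median was 11.1 FPKM, close to that of Homer1 and above those of the other 5 genes. Among genes of molybdenum cofactor synthesis and its enzymes, Mocs2 was detected in 28 cells and the remaining 5 in 1 to 4 cells each. Of the 25 cells with Gphn, 17 also had Mocs2.

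**Figure D2:**
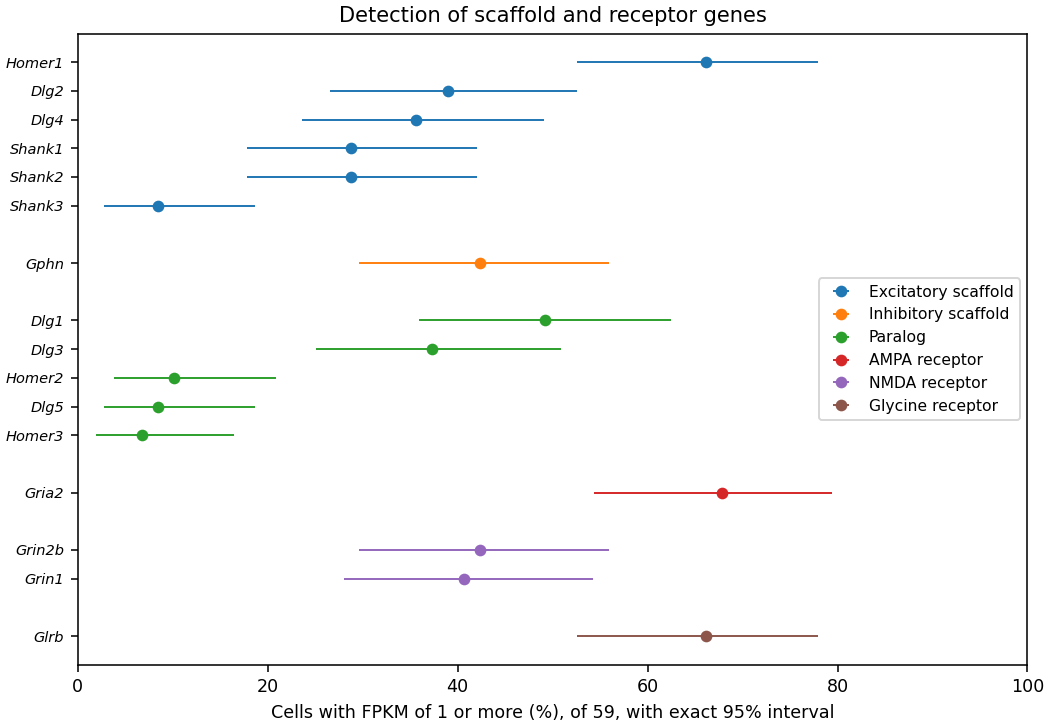
Share of the 59 cells (x axis, %) in which each gene was detected at an FPKM of 1 or more, with exact 95% intervals as bars and 1 colour per gene group. Homer1 (66.1%) lies beside the receptor genes Gria2 and Glrb, and Shank3 (8.47%) lies beside the paralogs Homer2, Dlg5 and Homer3.

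At an FPKM of 1, each cell with Gphn also had an excitatory scaffold gene. At least 1 of the 6 excitatory genes was detected in 49 cells (83.1%, 71.0 to 91.6%), and all 25 cells with Gphn were among them. Gphn without an excitatory gene was seen in 0 of 59 cells (exact upper bound 6.06%). With the threshold at an FPKM of 5 it was seen in 6.78% of cells. Excitatory genes without Gphn were found in 24 cells, and none of the 7 in 10 cells. The 25 cells with both kinds had a median of 5921 genes detected, the 24 with excitatory genes alone 3463.5, and the 10 with neither 1674.5. The part of depth in this pattern was not tested.

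In the level of each cell the inhibitory and the excitatory scaffolds took both positions. Gphn was above the mean of the 6 excitatory genes on the log2(FPKM + 1) scale in 25 cells, below it in 27 and equal, at 0, in 7. Against the highest excitatory gene of the cell, Gphn was above in 15 cells and below in 37, with a median difference of -1.25 (quartiles -3.38 and 0.02, SD 2.42 over cells). The highest of 6 genes is compared here with a single gene, which favours the excitatory side. In the 25 cells with both kinds, Gphn was above the highest excitatory gene in 14 and below it in 11, with a median difference of 0.08. Gene by gene, Gphn was above Homer1 in 22 cells and below it in 26, and above Shank1 in 30 and below it in 6.

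**Figure D3:**
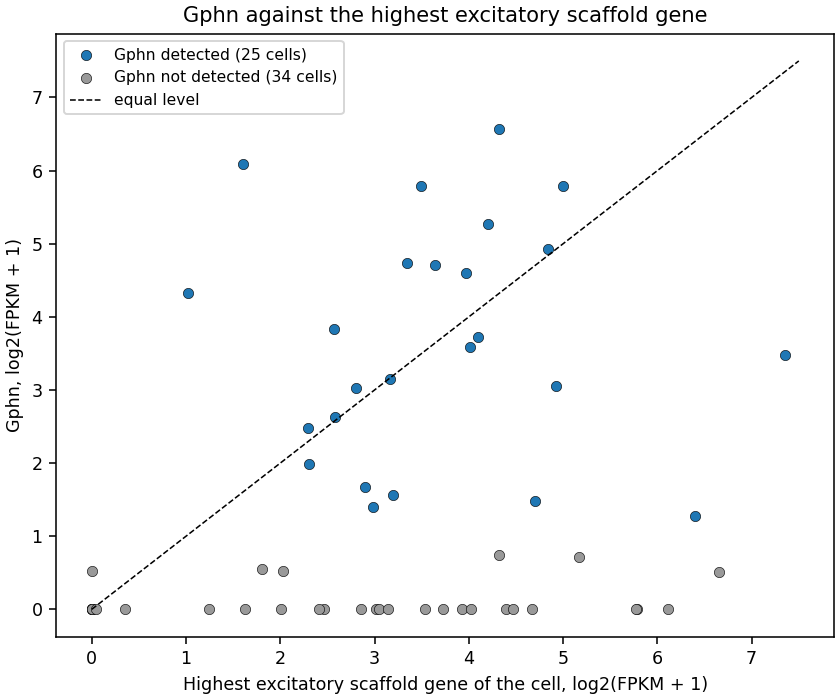
Gphn (y axis) against the highest of the 6 excitatory scaffold genes (x axis) in each of 59 cells, both as log2(FPKM + 1), with the 25 cells in which Gphn was detected in blue and the other 34 in grey. Of the blue cells 14 lie above the dashed line of equal levels and 11 below it, and no blue cell lies at 0 on the x axis.

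The number of excitatory scaffold genes per cell had a median of 2. No gene was detected in 10 cells, 1 gene in 13, 2 in 14, 3 in 10, 4 in 9 and 5 in 3, and no cell had all 6. The median number of genes detected was 1674.5 in the cells with none, 5125 in those with 3 and 7126 in those with 5. The 3 cells with 5 genes were cells 33, 43 and 58. A Dlg gene (Dlg4 or Dlg2), a SHANK gene and Homer1 were found together in 17 cells (28.8%), and Gphn was present in 14 of these.

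The 10 cells with no scaffold gene detected were cells 6, 21, 27, 34, 40, 41, 46, 53, 54 and 62. They had 0 to 11 of the 12 neuronal markers, and Snap25, a vesicle fusion gene, was detected in 7 of them. An AMPA receptor gene was found in 3 and a GABA-A receptor gene in 2. Cell 21 was deep, with 2934694 fragments and 7219 genes, and had 4 neuronal, 10 oligodendrocyte and all 12 microglia markers and a Homer1 level of 0.03 FPKM. Cell 46 had 11 neuronal markers and Shank3 at 0.28 FPKM.

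Homer1 was detected to a like extent at low and at high depth. In the 20 cells of lowest depth, 14 had Homer1, 7 Dlg4, 6 Dlg2 and 8 Gphn. In the 20 cells in the middle, 12 had Homer1, 6 Dlg4, 6 Dlg2 and 5 Gphn. In the 19 deepest cells, 13 had Homer1, 8 Dlg4, 11 Dlg2 and 12 Gphn. The rho of a member's FPKM with depth ran from -0.01 for Homer1 to 0.35 for Gphn, and with the number of genes detected from 0.18 for Homer1 to 0.55 for Gphn.

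Within the family, levels went together loosely. Over the 21 pairs of members the Spearman rho across cells had a median of 0.27 and ran from 0.02 for Shank2 with Shank3 to 0.50 for Dlg4 with Gphn. Holding the number of genes detected constant, the median was 0.12, and the highest values were 0.37 for Dlg4 with Homer1, 0.32 for Shank1 with Shank2 and 0.30 for Shank2 with Gphn. Dlg4 and Homer1 were found together in 18 of the 21 cells with Dlg4. All cells share a source and differ in depth, so these values describe the cells and carry no p.

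Counted by family, with any gene of the list, receptors were found in most cells. An AMPA receptor gene was found in 46 cells, an NMDA receptor gene in 39, a group I metabotropic receptor gene in 34, a GABA-A receptor gene in 49 and a glycine receptor gene in 40. Counted by gene, the list medians were 45.8% of cells for AMPA, 15.3% for NMDA, 32.2% for GABA-A and 3.39% for glycine receptor genes, beside 32.2% for the 6 excitatory scaffolds. Gria2 (40 cells) and Glrb (39) were the most widely detected genes of the AMPA and glycine families. Grin2b (25) and Grin1 (24), the obligatory NMDA subunit, led theirs. The glycine receptor alpha genes Glra1 to Glra4 were each detected in 1 to 4 cells, so this family is nearly the beta gene Glrb, whose product binds gephyrin.

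Dlg4 was detected mostly in cells with receptor genes of either kind, and Dlg2 in cells with and without NMDA receptor genes. Of the 39 cells with an NMDA receptor gene 20 had Dlg4 (51.3%), and of the 20 cells without one 1 had it (5.00%). For Dlg2 the counts were 14 of 39 (35.9%) and 9 of 20 (45.0%). All 21 cells with Dlg4 had an AMPA receptor gene and also Gria2, and 15 of them had Grin1. All 21 likewise had a GABA-A and a GABA-B receptor gene, and the rho of Dlg4 was 0.64 with the GABA-A list and 0.60 with the NMDA list. The rho of Dlg4 with Grin1 was 0.65, and 0.57 with the number of genes detected held constant, against 0.09 and -0.06 for Dlg2 with Grin1. The cells with an NMDA gene had a median of 4561 genes detected and those without 2426, and the part of depth in these counts was not tested. With the threshold at an FPKM of 5, the share among cells with an NMDA gene was 17.9% for both Dlg4 and Dlg2, and at 10 or more fragments it was 39.5% for Dlg4 and 42.1% for Dlg2.

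The share of cells with Homer1 was higher among cells with than without a receptor gene in each of the 7 families, and these differences were not tested. Of the 34 cells with a group I metabotropic receptor gene, 28 had Homer1 (82.4%), against 11 of the 25 without (44.0%), at medians of 4495 and 2174 genes detected. It was found in 32 of the 39 cells with an NMDA gene and 7 of the 20 without, and in 38 of the 47 with a GABA-B gene and 1 of the 12 without. With Grm5, its binding partner, Homer1 shared 28 cells, which is 87.5% of the cells with Grm5. All 39 cells with Homer1 had a GABA-A receptor gene, and none of the 10 cells without one had it. Homer1 was present in 14 of the 17 cells with Shank1 and in 13 of the 17 with Shank2, and its rho was 0.17 with Shank1 and 0.07 with Shank2.

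Gphn was detected in 23 of the 49 cells with a GABA-A receptor gene (46.9%), against 2 of the 10 without (20.0%). It was found in 23 of the 40 cells with a glycine receptor gene (57.5%), against 2 of the 19 without (10.5%). With Glrb it shared 22 cells, at a rho of 0.45 and of 0.24 at constant genes detected. The same cells carried glutamate receptor genes, since 22 of the 25 cells with Gphn had an AMPA and 21 an NMDA receptor gene. In every receptor family the share with Gphn was higher in cells with a gene of the family than without. For group I metabotropic genes it was 22 of 34 against 3 of 25, and for GABA-B genes 25 of 47 against 0 of 12. Cells with and without a GABA-A gene had medians of 4303 and 2016.5 genes detected. For glycine receptor genes these were 4703.5 and 2174, and the part of depth was not tested.

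**Figure D4:**
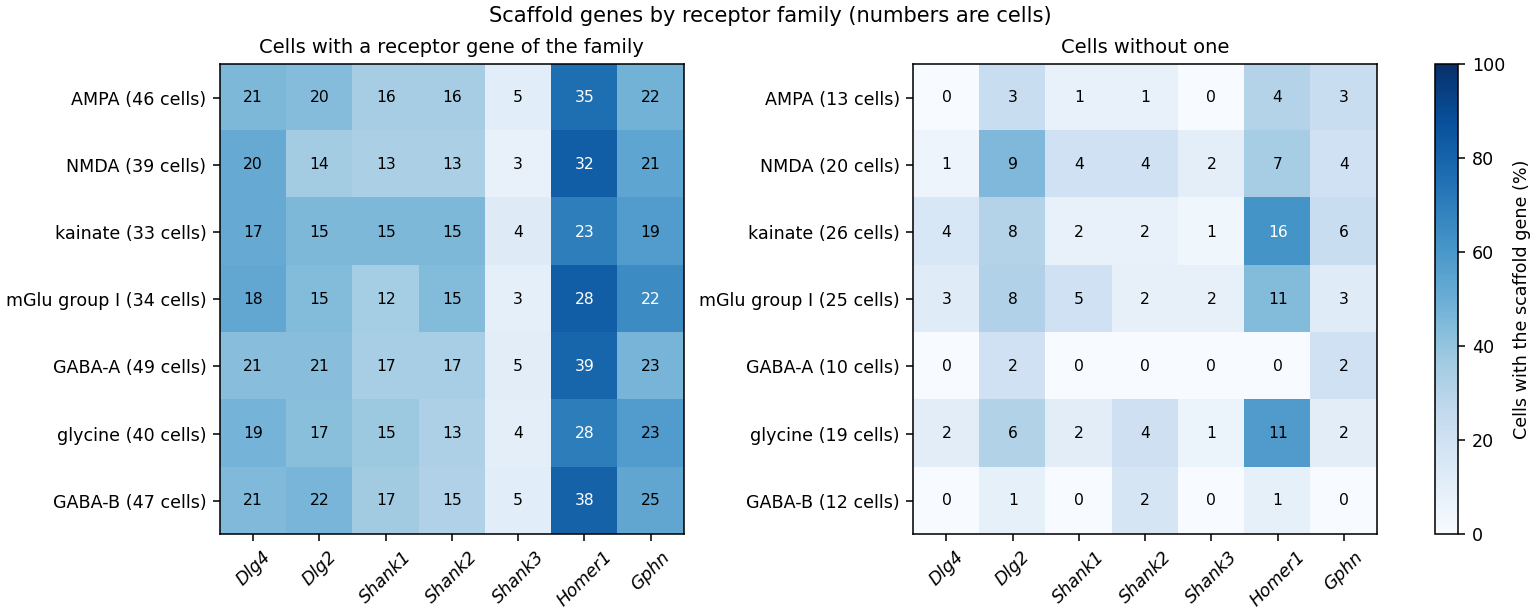
Number of cells with each scaffold gene (columns; colour is the share of the row's cells in %) among cells with a receptor gene of the family (left) and among cells without one (right), at an FPKM of 1 or more. Dlg4 is in 20 of 39 cells with an NMDA receptor gene and in 1 of 20 without, while Dlg2 is in 14 of 39 and 9 of 20.

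Correlations of the excitatory scaffolds and of Gphn ran to receptor lists of both kinds. The mean level of the 6 excitatory genes had a rho of 0.69 with the mean of the GABA-A list. The same mean had a rho of 0.63 with the group I metabotropic, 0.61 with the AMPA and 0.53 with the NMDA list. Gphn had a rho of 0.59 with the group I metabotropic list, 0.49 with the glycine, 0.45 with the GABA-A, 0.44 with the NMDA and 0.38 with the AMPA list. Holding the number of genes detected constant, the rho of the excitatory mean was 0.56 with the GABA-A list. It was 0.50 with the group I metabotropic, 0.44 with the AMPA and 0.35 with the NMDA list. That of Gphn was 0.44 with the group I metabotropic, 0.29 with the glycine, 0.21 with the NMDA, 0.20 with the GABA-A and 0.11 with the AMPA list. These are sparse values over 59 cells of 1 sample, and differences between the correlations were not tested.

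**Figure D5:**
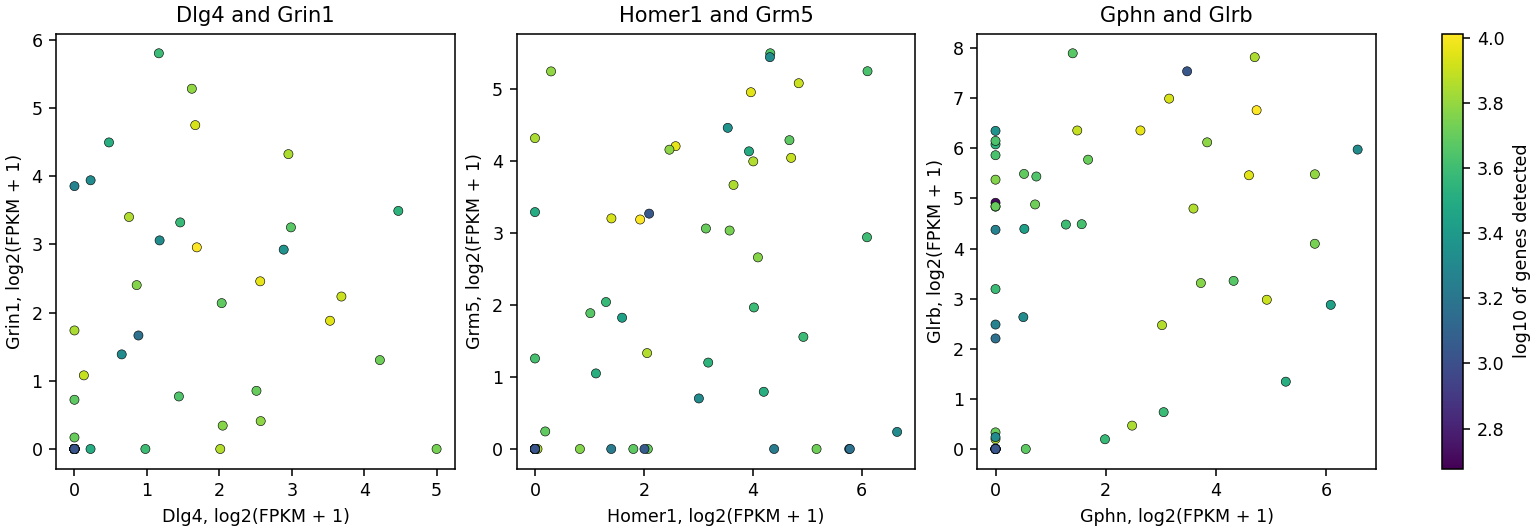
Levels of a scaffold gene (x axis) and a receptor gene it is known to work with (y axis) in each of 59 cells, as log2(FPKM + 1), coloured by the log10 of the genes detected. Dlg4 with Grin1 has a rho of 0.65, Homer1 with Grm5 0.45 and Gphn with Glrb 0.45, and many cells lie at 0 on either axis.

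Of 16 partner genes of the excitatory scaffold 6 reached 50% of the cells, as did 11.7% of all genes, and the median of the list was 33.1%. Camk2a, the alpha subunit of the synaptic kinase CaMKII, was found in 43 cells, the SAPAP genes Dlgap4 and Dlgap1 in 37 and 31, and the stargazin gene Cacng2 in 31. Cacng8, a gene related to stargazin, was the lowest in 3 cells. Dlgap1 was present in 16 of the 21 cells with Dlg4, in 13 of the 17 with Shank1 and in 10 of the 17 with Shank2.

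Over 8 partners of gephyrin the median of the list was 20.3%. Lhfpl4, a GABA-A receptor partner, was found in 23 and Nlgn2 (neuroligin 2, the adhesion protein of inhibitory synapses) in 19. Of the 19 cells with Nlgn2, 15 had Gphn, with a rho of 0.53 and of 0.39 at constant genes detected. Fam196a, the symbol the table uses for Insyn2a, was the lowest in 4 cells.

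The genes whose levels went most closely with each scaffold gene were ranked among 8014 genes detected in at least 12 cells, without mitochondrial genes and the members. For Dlg4 they were Elmod1 (rho 0.71), Fam184a (0.71) and Grin1 (0.65). For Homer1 they were Pclo, which encodes the presynaptic protein piccolo (0.65), Cacng2 (0.65) and Chn1, a Rac regulator (0.64). For Gphn they were Agap3 (0.67), Gpr155 (0.66) and Appbp2 (0.65). Dlg2 was closest to Tmem91 (0.58), Inpp5f (0.58) and Actr8 (0.56). Shank1 was closest to Lrrc73, Pfdn4 and Jmy, at 0.68 to 0.66. Shank2 was closest to Adar, which encodes an RNA-editing enzyme (0.71), Fam73a (0.65) and Gtf2e2 (0.64). The median rho over all ranked genes was 0.10 for Homer1 and 0.19 to 0.27 for the other 5, and Shank3 was detected in too few cells to be ranked.

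The mean level of the excitatory scaffolds and the level of Gphn had higher correlations with neuronal than with glial marker lists, and these differences were not tested. The mean of the excitatory scaffolds had a rho of 0.65 with the mean of the neuronal list and 0.70 with that of 10 presynaptic genes, and 0.32 with the astrocyte list. It was 0.08 with the microglia list and 0.02 with the oligodendrocyte list. Among single members Shank3 had a rho of 0.45 with the astrocyte and 0.29 with the neuronal list. Dlg2 had 0.33 with the oligodendrocyte precursor and 0.23 with the neuronal list. For Gphn the values were 0.42 with the neuronal, 0.19 with the astrocyte, 0.08 with the oligodendrocyte and 0.03 with the microglia list. At constant genes detected these were 0.21, -0.10, -0.06 and -0.31 for Gphn. For the mean of the excitatory scaffolds they were 0.53, 0.09, -0.12 and -0.24, in the same order of lists. The summed FPKM of the lists ranged over the cells from 0 to 3013 for the neuronal, 14.6 to 29150 for the oligodendrocyte, 0 to 36230 for the microglia and 0 to 4340 for the astrocyte list. No gene of these lists was at 0 in every cell, and the part of glial RNA in the scaffold values was not tested.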

How the data were processed

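Single-cell RNA-seq of 59 cells was used. The authors deposited their values as FPKM in a table with a column for each cell. Per the submitters' processing notes, the tools were STAR 2.5.3a and featureCounts 1.5.3 and the build was GRCm38. The gene annotation, strand setting and handling of reads with several matches were not given in the sources used here, so paralogs and overlapping genes may share reads. The 51 spike-ins were left out of 20740 features.

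FPKM times exon length (GENCODE M21, 19401 genes) is a multiple of 1 fragment, which gave the depth of each cell. For 10625 genes the steps also gave the exon length used. With these a median of 100% of values up to 20 fragments per cell was whole within 0.02, and 88.3% in the lowest cell. In 2 cells under 95% were whole. Lengths and depths were both chosen to make values whole, so these shares are no independent check. With the GENCODE M21 lengths the median share was 73.4%. The values were kept as FPKM, no count model was used, and with 1 group no test was run. The depth step was tested on simulated data. It missed the depth of many simulated cells when exon lengths differed from the annotation by simple fractions. It returned the depth of every simulated cell when they differed by irregular ratios, a simulation chosen after the other had failed. The step had itself been revised after its first estimates differed from earlier ones of the same data, and the unit was halved in 4 cells where odd low values were rare. Depths and fragment numbers are therefore estimates, while shares and levels by FPKM do not use them.

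Log2 values are log2(FPKM + 1), which understates differences between low values. Spearman rho is a description, and the value at constant genes detected is a partial rank correlation. Intervals are exact Clopper-Pearson 95% intervals. Analyses used Python 3.11.15, pandas 2.3.3, numpy 2.4.6 and scipy 1.17.1.

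The members and gene lists were chosen with earlier results of these data known. All 7 members are named, as are the highest and lowest genes of each list, those needed for joint counts, and the 3 genes closest to each member detected in at least 12 cells. Some genes of the lists are counted but not reported here by name. Alternatives were other thresholds, scalings, pseudocounts, summaries and sets of cells.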

Additional observations from a re-analysis of the deposited data

How the results depend on the processing

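The alternatives gave 174 values for 27 results. Of these 153 lay inside and 21 outside the 95% interval of the reported share or correlation, or 1 SD over cells for a difference. A change of sign could be seen only for the correlations and for Gphn minus the highest excitatory gene, and 0 occurred. Shares and counts cannot change sign. For Gphn minus the excitatory mean the reported median was 0, so no change could be called. At an FPKM of 5, Homer1 was found in 42.4% of cells, Dlg2 in 22.0%, Dlg4 in 13.6%, Shank2 in 10.2%, Shank1 in 5.08% and Shank3 in 1.69%. An excitatory scaffold was then found in 61.0%, with Gphn in 23.7%, Gphn alone in 6.78% and none in 32.2%. Among cells with an NMDA receptor gene 17.9% had Dlg4 and 17.9% Dlg2, so the share of Dlg4 was no longer above that of Dlg2. At 10 or more fragments the shares were 39.5% for Dlg4 (24.0 to 56.6%) and 42.1% for Dlg2 (26.3 to 59.2%), with overlapping intervals. In the same cell, 10 fragments are a lower FPKM for Dlg2 (10345 bases of exon) than for Dlg4 (4982 bases). With the FPKM threshold of 5, Homer1 was in 65.2% of cells with a group I metabotropic receptor gene. An excitatory scaffold was in 71.9% of cells with an AMPA receptor gene at that threshold. These shares were 84.6% and 92.9% at 10 or more fragments. With any FPKM above 0, Dlg4 was found in 50.8%, Shank2 in 45.8% and Shank3 in 22.0%. These moves come from the threshold. When only the 46 cells with 2000 genes or more were kept, which favours detection, 93.5% had an excitatory scaffold and 6.52% had no scaffold. At a constant number of genes detected, the rho of Gphn was 0.11 with the AMPA list and 0.20 with the GABA-A list. The median difference of Gphn from the highest excitatory gene ran from -2.00 to -0.26. No paired analysis was possible because there is 1 group. Depth limits each absence. In 31 cells a single fragment in 1 kb of exon already exceeds an FPKM of 1. The exon lengths of the members run from 3397 to 10660 bases, so for them this holds in fewer cells.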
